A study of Mus musculus with 12 samples.

Results

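The C/EBP and EBF transcription factors of fat cells were described in epididymal white adipose tissue (eWAT) of mice. The 8 genes were taken as a list of symbols: Cebpa, Cebpb, Cebpd and Cebpg of the C/EBP family, Ebf1, Ebf2 and Ebf3 of the EBF family, and Zfp423, a zinc finger partner of the EBF proteins. Of these 8 genes, 7 had rows in the deposited table, out of 23132 genes after summing, and all 7 were among the 12813 genes tested. Cebpd was not analysed here, because no row carried its symbol or its Ensembl gene.

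All mice were male C57BL/6J, 21 weeks old, and had been on their diet for 16 weeks from the age of 5 weeks. The groups were a normal diet (ND), a high-fat diet (HFD), the HFD with 1.5% (w/w) ethanol extract of Chrysanthemum morifolium Ramat. leaves (CLE), and the HFD with 0.003% (w/w) luteolin (LU), a plant flavonoid. RNA came from 3 mice per group, which the authors chose as representative, giving 12 libraries, and the comparisons ask what the HFD changed and what CLE or LU changed on the HFD. The HFD group served as the control of both supplements and as the test group against ND, so these comparisons share its 3 mice. Whole tissue was extracted, so a bulk value cannot tell fewer cells of a type from less RNA per cell.

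Fat cells form in a known order. C/EBPβ and C/EBPδ act early in a preadipocyte and turn on C/EBPα and PPARγ, which maintain each other and the genes of the mature fat cell, while C/EBPγ, which lacks a strong activation domain, pairs with the other C/EBP proteins. EBF proteins bind beside PPARγ at many adipocyte genes, EBF2 marks brown and beige fat cells, and ZFP423 commits preadipocytes and holds back the beige program.

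Expression was given as FPKM, fragments scaled to transcript length and to the mapped fragments of the library, which can be compared between genes because it is per length. Over the 12 libraries, Cebpa had the highest mean level at 184 FPKM, which lay at percentile 97.4 of the tested genes. Ebf1 followed at 38.6, Zfp423 at 29.3 and Cebpg at 28.0 FPKM, and their ranges over libraries overlapped each other. Ebf3 at 11.4, Ebf2 at 11.3 and Cebpb at 8.11 FPKM were lowest, at percentiles 50.3, 49.9 and 39.6 of the tested genes, and their ranges overlapped as well. Only Cebpa, whose lowest library held 136 FPKM, stood apart from every other member in this order.

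The promoters of Cebpa, Ebf3 and Zfp423 are shown as examples. Cebpa and Ebf3 passed the adjusted p in HFD against ND, as Ebf1 and Ebf2 also did, whereas the Zfp423 sum did not pass. No promoter of Ebf2 was available, so it was not searched. Each line gives the 250 bases before the transcription start from RefSeq on GRCm38.p6, with the sequence read along the gene's strand. Capitals mark letters that were searched for on both strands: the C/EBP motif TTGCNNAA, the EBF motif, which is TCCC and GGGA with any 2 bases between them, the CCAAT box CCAAT and the TATA box TATAAA.
Cebpa (chr7:35119043-35119292, plus strand): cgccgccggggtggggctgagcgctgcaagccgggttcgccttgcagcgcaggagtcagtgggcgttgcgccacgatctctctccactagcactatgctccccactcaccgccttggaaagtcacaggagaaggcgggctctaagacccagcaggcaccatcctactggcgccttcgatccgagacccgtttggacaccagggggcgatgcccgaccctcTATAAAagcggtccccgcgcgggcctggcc
Ebf3 (chr7:137314446-137314695, minus strand): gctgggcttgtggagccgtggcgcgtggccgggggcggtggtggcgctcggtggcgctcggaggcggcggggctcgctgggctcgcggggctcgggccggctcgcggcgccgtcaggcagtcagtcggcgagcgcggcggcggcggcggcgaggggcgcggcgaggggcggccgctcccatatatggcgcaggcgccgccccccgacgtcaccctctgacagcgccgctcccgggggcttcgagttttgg
Zfp423 (chr8:87959596-87959845, minus strand): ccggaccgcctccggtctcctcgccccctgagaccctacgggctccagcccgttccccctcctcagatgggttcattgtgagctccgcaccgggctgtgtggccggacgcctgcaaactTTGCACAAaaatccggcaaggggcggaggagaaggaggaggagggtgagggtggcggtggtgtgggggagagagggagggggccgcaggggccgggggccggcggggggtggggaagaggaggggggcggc

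The Cebpa window held TATAAA from 30 bases before the start, a motif found in 12.4% of the 32851 promoter windows of this length. The Zfp423 window held TTGCACAA from 131 bases before the start, and 9.56% of all windows held the C/EBP letters. The other promoters in the table, those of Cebpb, Cebpg, Ebf1 and Ebf3 and the second of Zfp423, held neither the C/EBP nor the EBF letters, and the EBF letters occurred in 0.779% of all windows. The Cebpg window held the CCAAT box on the reverse strand at 89 and 28 bases before the start, as ATTGG, where 33.8% of windows held a CCAAT box on either strand.

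In HFD against ND a set of these factors was lower: Ebf2 and Ebf3 fell by more than the fold threshold, Cebpa and Ebf1 fell by less than it, and Cebpb, Cebpg and Zfp423 did not pass the test. A gene was called when limma gave a Benjamini-Hochberg adjusted p under 0.05 and the fold change was over 1.5, on the log2(FPKM + 1) scale, which understates changes of low genes. On this rule 2 of the 7 factors were called in HFD against ND, both lower, where 25.7% of all tested genes were called and 10.8% were called lower. By the adjusted p alone, 4 of the 7 were lower, beside 24.8% of all genes. In the same 4 genes every HFD library lay below every ND library, a pattern shared by 29.3% of all genes. The median difference of the 7 factors was -0.48, against -0.02 over all genes tested.

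**Figure D1:**
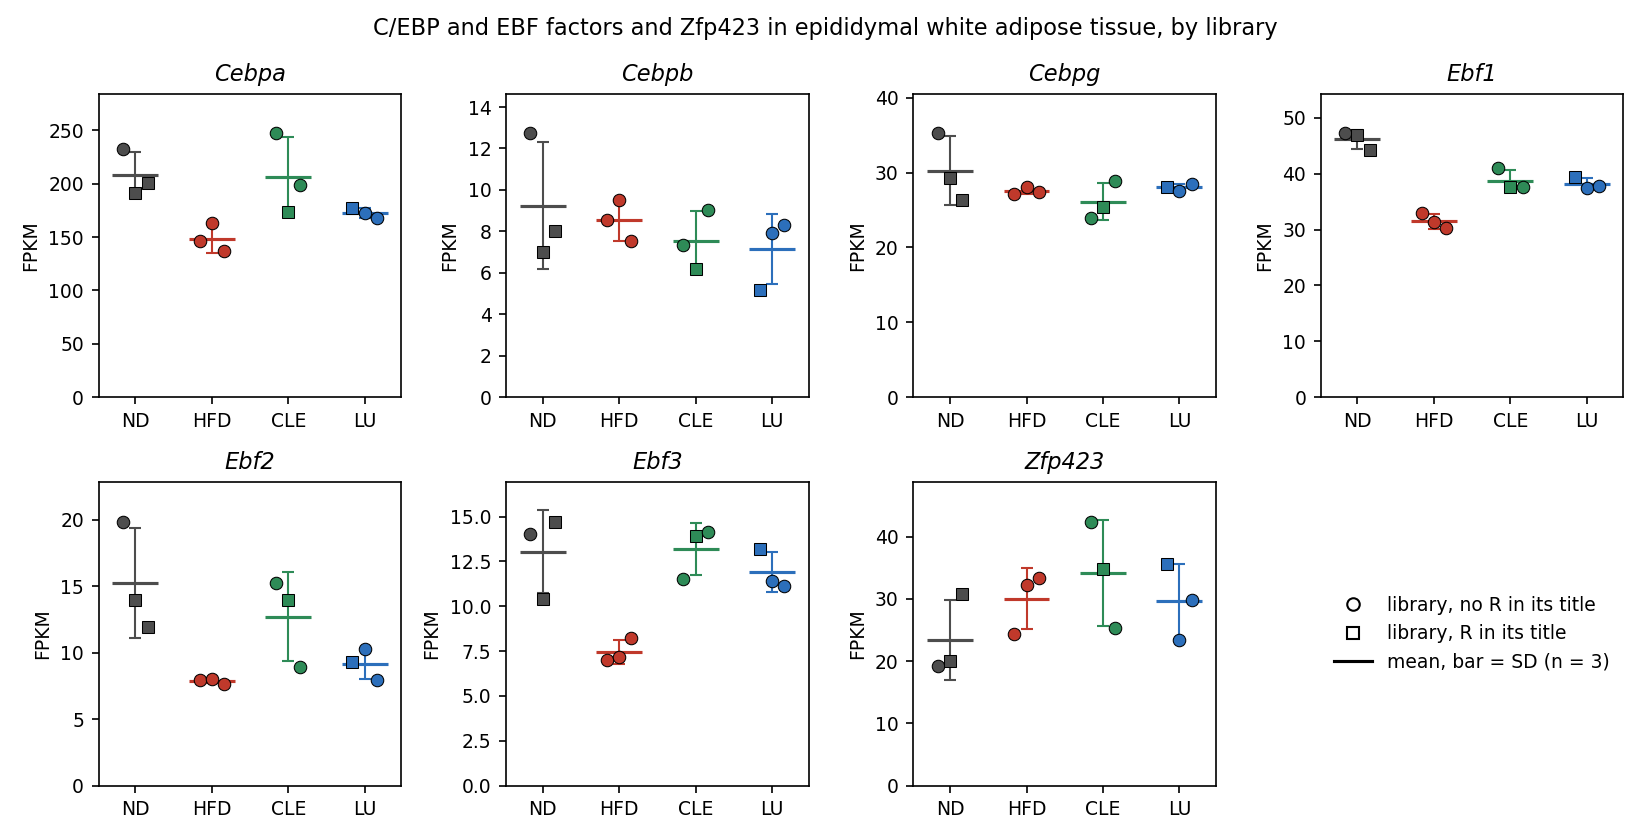
FPKM of each factor in the 12 libraries, 1 panel per gene with FPKM from 0 on the y axis and the 4 groups on the x axis. Points are libraries, with squares for the 4 libraries whose titles carry the letter R, and lines and bars are the mean and SD of 3 mice. The HFD points lie below all ND points for Cebpa, Ebf1, Ebf2 and Ebf3, while those of Cebpb, Cebpg and Zfp423 overlap with ND.

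Cebpa, the factor that holds the mature fat cell state, lies on chromosome 7 from 35119293 to 35121928 on the plus strand and was measured by 1 protein-coding transcript. Its FPKM were 232, 191 and 201 in ND mice 2, 3 and 4, 146, 163 and 136 in HFD mice 12, 15 and 18, 247, 173 and 199 in CLE mice 2, 4 and 11, and 177, 172 and 168 in LU mice 2, 3 and 8. All HFD values were the lowest of the 12, and the LU values lay in a narrow band between HFD and ND. Cebpa was lower in HFD than in ND by a log2 difference of -0.48 (SE 0.13; limma, Benjamini-Hochberg adjusted p = 0.00810). CLE exceeded HFD by 0.46 (SE 0.13; limma, Benjamini-Hochberg adjusted p = 0.0159), which was under the fold threshold. Without HFD mouse 18 or without CLE mouse 2 this difference was 0.40 or 0.32, and the adjusted p rose to 0.0645 or 0.0581 (limma, Benjamini-Hochberg). LU exceeded HFD by 0.22 with no overlap of the libraries, but the limma, Benjamini-Hochberg adjusted p was 0.227 and the 95% interval ran from -0.06 to 0.50.

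Cebpb, the early factor that also drives acute phase genes, lies on chromosome 2 from 167688915 to 167690418. Its FPKM were 12.7, 6.99 and 8.0 in ND, 8.55, 9.52 and 7.52 in HFD, 7.33, 6.20 and 9.05 in CLE, and 5.19, 7.90 and 8.31 in LU, in the same order of mice. ND mouse 2 was the highest and LU mouse 2 the lowest, and all groups overlapped. The difference of HFD from ND was -0.07 with a 95% interval from -0.53 to 0.40, and that of CLE from HFD was -0.17, from -0.63 to 0.30. LU differed from HFD by -0.25, from -0.71 to 0.22, and the intervals of both supplements reach past the fold threshold on the lower side. The limma, Benjamini-Hochberg adjusted p were 0.807, 0.578 and 0.420. Without the 4 libraries with the letter R, which leaves ND mouse 2 alone in its group, the difference of HFD from ND was -0.53 (SE 0.16). Among the alternatives that kept all 12 libraries, the lowest limma, Benjamini-Hochberg adjusted p of HFD against ND was 0.0261. The Cebpb result in this comparison therefore depended on the processing.

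Cebpg, the dimer partner, lies 62.7 kb from Cebpa on chromosome 7, from 35046422 to 35056573 on the minus strand. It held 35.3, 29.2 and 26.3 FPKM in ND, 27.2, 28.0 and 27.4 in HFD, 24.0, 25.5 and 28.9 in CLE, and 28.0, 27.6 and 28.5 in LU. The coefficient of variation was 1.63% in HFD and 1.54% in LU, against 15.1% in ND, and all groups overlapped. HFD differed from ND by -0.12 (95% interval -0.35 to 0.11), CLE from HFD by -0.08 (-0.31 to 0.15) and LU from HFD by 0.02 (-0.21 to 0.25). None of these 3 intervals reached the fold threshold of 1.5, which is 0.58 on the log2 scale. The limma, Benjamini-Hochberg adjusted p were 0.357, 0.609 and 0.885.

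Ebf1, the most abundant EBF gene here and one active from the preadipocyte onward, lies on chromosome 11 from 44617317 to 45008091. Its FPKM were 47.3, 47.0 and 44.2 in ND, 32.9, 31.4 and 30.3 in HFD, 40.9, 37.6 and 37.6 in CLE, and 39.4, 37.4 and 37.9 in LU. In this sum over all rows, every HFD library was below every CLE and LU library, and these were below every ND library. HFD was lower than ND by -0.54 (SE 0.07; limma, Benjamini-Hochberg adjusted p = 0.000114). CLE exceeded HFD by 0.29 (SE 0.07; limma, Benjamini-Hochberg adjusted p = 0.0107), and LU exceeded HFD by 0.27 (SE 0.07; limma, Benjamini-Hochberg adjusted p = 0.0185). None of these passed the fold threshold. The LU difference was 0.24 to 0.30 when 1 library was left out, and the adjusted p rose above 0.05 without HFD mouse 15, HFD mouse 18 or LU mouse 2 (0.0558, 0.0757 and 0.0595; limma, Benjamini-Hochberg).

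Ebf1 is read through 24 rows, of which 17 were assembled from the reads, and the single row with the highest mean held 33.6% of the sum. In that row alone, CLE differed from HFD by -0.04 (SE 0.36) and LU by 0.42 (SE 0.36), whereas the sum over rows gave 0.29 and 0.27. Rows on non-coding transcripts held 10.3% of the sum. Over protein-coding rows the means were 40.2 ± 3.18 FPKM in ND, 28.2 ± 0.939 in HFD, 35.2 ± 3.10 in CLE and 35.2 ± 1.37 in LU (SD, n = 3), with the HFD libraries again below the others. In these rows CLE and ND overlapped, since CLE mouse 2 held 38.4 FPKM and ND mouse 4 held 36.5.

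Ebf2, which marks brown and beige fat cells and their precursors, lies on chromosome 14 from 67233292 to 67430918. It held 19.9, 14.0 and 11.9 FPKM in ND, 7.96, 8.04 and 7.68 in HFD, 15.2, 14.0 and 8.93 in CLE, and 9.31, 10.3 and 7.93 in LU. ND mouse 2 was far above the other ND mice, CLE mouse 11 lay near the HFD level, and LU overlapped with HFD. The fall in HFD against ND was -0.84 (SE 0.20; limma, Benjamini-Hochberg adjusted p = 0.00417), to 0.518 of the ND mean in FPKM. CLE exceeded HFD by 0.59 (SE 0.20; limma, Benjamini-Hochberg adjusted p = 0.0369), just past the fold threshold.

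The Ebf2 call in CLE was lost when HFD mouse 12, 15 or 18 or CLE mouse 2 or 4 was left out, with differences of 0.60, 0.605, 0.575, 0.46 and 0.51 and limma, Benjamini-Hochberg adjusted p of 0.0788 to 0.133. It was also lost without the libraries with the letter R (0.51; limma, Benjamini-Hochberg adjusted p = 0.108). LU differed from HFD by 0.19, with a 95% interval from -0.24 to 0.62 and a limma, Benjamini-Hochberg adjusted p of 0.511.

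Ebf3, an EBF gene with the same DNA-binding domain, lies on chromosome 7 from 137193673 to 137314445. Its FPKM were 14.0, 10.4 and 14.7 in ND, 6.99, 7.15 and 8.22 in HFD, 11.5, 13.9 and 14.1 in CLE, and 13.2, 11.4 and 11.1 in LU. The HFD libraries were below all the others, and the CLE and LU libraries lay within or near the ND range. HFD was lower than ND by -0.72 (SE 0.13; limma, Benjamini-Hochberg adjusted p = 0.000803). CLE exceeded HFD by 0.745 (SE 0.13; limma, Benjamini-Hochberg adjusted p = 0.00123), and the call held whichever library was left out, with values from 0.70 to 0.83. LU exceeded HFD by 0.61 (SE 0.13; limma, Benjamini-Hochberg adjusted p = 0.00580), and fell under the fold threshold without HFD mouse 12 (0.57) or LU mouse 2 (0.54).

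Its most abundant row, the annotated transcript with 47.4% of the Ebf3 sum, held 6.12 ± 1.16 FPKM in ND, 3.58 ± 0.441 in HFD, 6.11 ± 0.986 in CLE and 5.79 ± 1.04 in LU (SD, n = 3). The HFD range, 3.07 to 3.84, lay below the ranges of the other groups. The second row, an assembled form with 28.9% of the sum, gave 3.96 ± 0.945, 1.96 ± 0.262, 3.58 ± 0.980 and 3.66 ± 0.206 FPKM in the same order, so both forms were lowest in HFD.

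**Figure D2:**
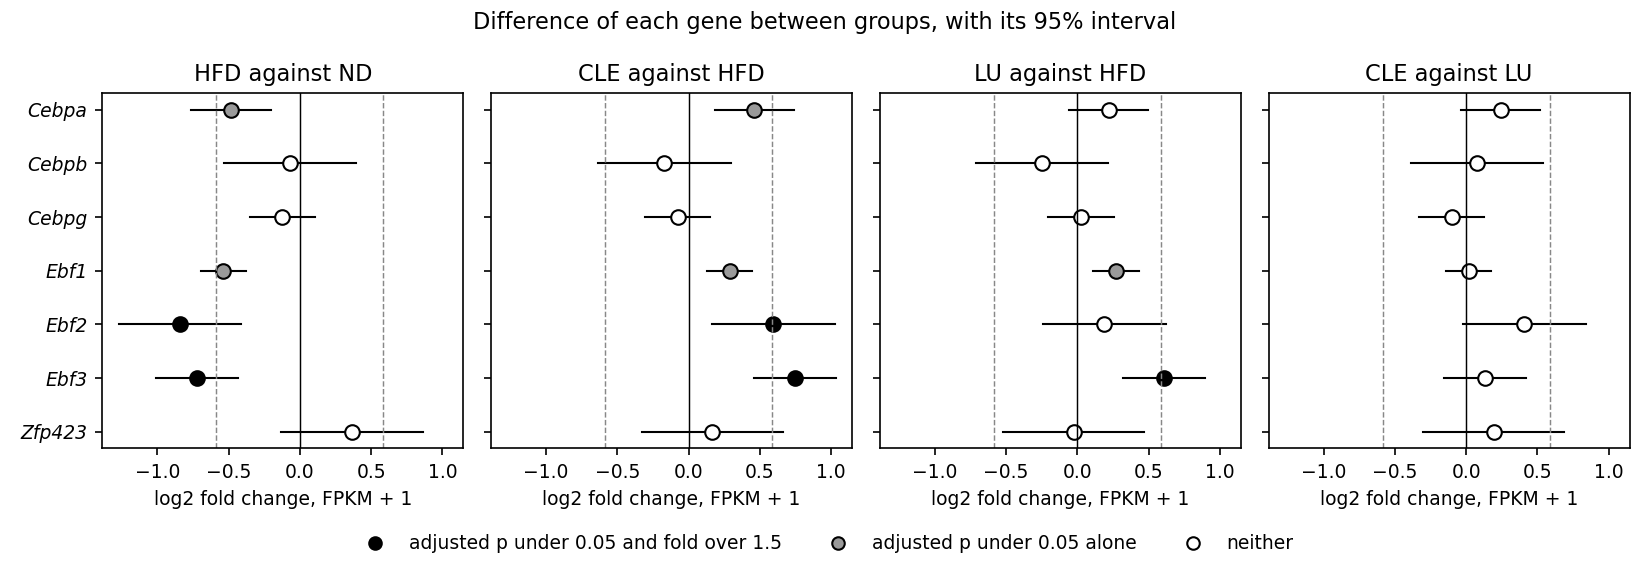
Log2 fold change of FPKM + 1 for each factor on the x axis, with its 95% interval, in 4 comparisons. Filled points passed the adjusted p and the fold threshold, grey points the adjusted p alone and open points neither, and dashed lines mark a fold of 1.5. Ebf2 and Ebf3 are filled in HFD against ND and CLE against HFD, Ebf3 alone in LU against HFD, and no gene in CLE against LU.

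Zfp423, which commits preadipocytes, lies on chromosome 8 from 87661810 to 87959595 on the minus strand. As a sum of 13 rows it held 19.3, 20.02 and 30.9 FPKM in ND, 24.4, 32.2 and 33.4 in HFD, 42.4, 34.8 and 25.4 in CLE, and 35.6, 23.4 and 29.8 in LU. All groups overlapped, and HFD differed from ND by 0.37 with a 95% interval from -0.13 to 0.86 (limma, Benjamini-Hochberg adjusted p = 0.199). CLE differed from HFD by 0.17 (-0.33 to 0.66) and LU by -0.03 (-0.52 to 0.47).

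This sum joined rows that went different ways. A non-coding processed transcript of 386 bases (ENSMUST00000173092) took 32.8% of the sum on average and 15.03% to 47.5% of it in single libraries. It held 4.36, 4.02 and 5.70 FPKM in ND, 9.66, 12.9 and 15.9 in HFD, 18.4, 12.6 and 3.81 in CLE, and 12.6, 5.96 and 9.22 in LU. Its ND values were below its HFD and LU values, and the CLE libraries spanned the range of all 12. The annotated full-length transcript of 4907 bases (ENSMUST00000109655) held 5.15, 4.47 and 5.27 FPKM in ND, 3.25, 3.81 and 3.37 in HFD, 6.38, 5.36 and 6.22 in CLE, and 6.998, 5.67 and 4.76 in LU. In this transcript every HFD library was below every other library. Cufflinks divides reads among overlapping transcripts, so single rows are estimates. The short transcript, the Zfp423 row with the highest mean, was fitted alone only among the alternatives (1.26 in HFD against ND). The full-length transcript was not tested on its own.

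Over the protein-coding rows of Zfp423, chosen after the row shares were seen, the means were 18.2 ± 5.27 FPKM in ND, 16.5 ± 1.93 in HFD, 22.0 ± 1.03 in CLE and 19.9 ± 2.50 in LU (SD, n = 3). HFD then differed from ND by -0.10 (95% interval -0.46 to 0.26), the other direction from the whole sum (limma, Benjamini-Hochberg adjusted p = 0.633). The CLE libraries lay above the HFD libraries, by 0.395 (95% interval 0.04 to 0.75), with a limma, Benjamini-Hochberg adjusted p of 0.0833.

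**Figure D3:**
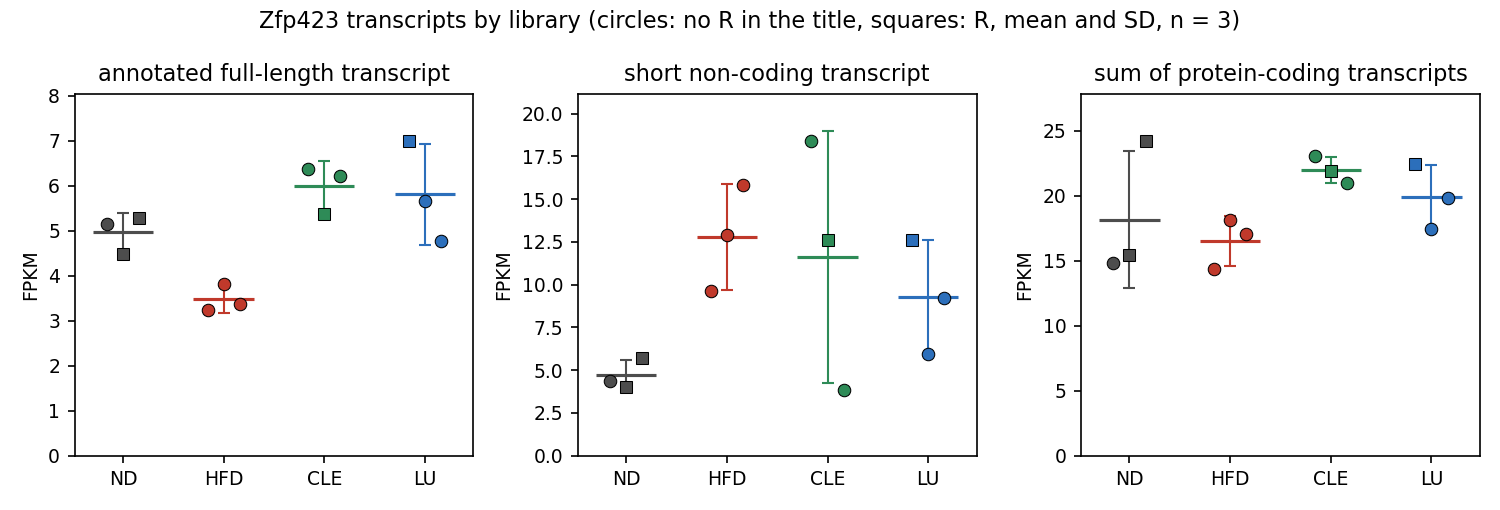
FPKM of 2 Zfp423 transcripts and of the protein-coding sum in each library, with the 4 groups on the x axis. Points are libraries, squares carry the letter R, and lines and bars are the mean and SD of 3 mice. The full-length transcript, with 17.3% of the whole Zfp423 sum, is lowest in the HFD libraries, at 3.25 to 3.81 FPKM. The short transcript is lowest in ND apart from CLE mouse 11.

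In CLE against HFD, 2 of the 7 factors were called, Ebf2 and Ebf3, both higher, where 16.5% of all genes were called and 6.34% called higher. By the adjusted p alone 4 of 7 were higher, beside 15.6% of all genes, and the same 4 did not overlap between the groups, beside 24.3%. In LU against HFD, Ebf3 alone was called, beside 12.4% of all genes called and 4.77% called higher. By the adjusted p alone Ebf1 and Ebf3 were higher, beside 13.3%, and Cebpa, Ebf1 and Ebf3 lay above HFD without overlap, beside 25.6%. The exact two-sided permutation test of 3 libraries against 3 gave p = 0.1, the smallest it can give, for each of these non-overlapping genes.

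The 2 supplements were compared directly, with the difference in dose and make-up between an extract and a single compound in mind. limma called 0 of the 7 factors in CLE against LU, and 0 at an unadjusted p under 0.05, where 1 gene of 12813, or 0.00780%, was called at all. Ebf2 was higher in CLE by 0.41 with a 95% interval from -0.03 to 0.84 (limma, Benjamini-Hochberg adjusted p = 0.898), and Cebpa by 0.24 (-0.04 to 0.52). Ebf1 differed by 0.02 (-0.14 to 0.18), an interval within the fold threshold, and Ebf3 by 0.13 (-0.15 to 0.42). Ebf2 was called in CLE and not in LU against HFD, but the difference between the supplements itself did not pass.

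Against ND, limma called 0 factors in CLE, beside 2.98% of all genes, and 0 in LU, beside 6.57%. At an unadjusted p under 0.05, Ebf1 was lower and Zfp423 higher in CLE than in ND, and Ebf1 and Ebf2 were lower in LU than in ND. The share of all genes under this rule was not taken. Over protein-coding rows CLE differed from ND by 0.295 for Zfp423 (95% interval -0.06 to 0.65) and -0.185 for Ebf1 (-0.38 to 0.01). Ebf2 in LU differed from ND by -0.66 (-1.09 to -0.235) over these rows. Cebpa in CLE differed from ND by -0.02 (95% interval -0.30 to 0.26) and Ebf3 by 0.02 (-0.26 to 0.31). All CLE libraries were below all ND libraries for Ebf1, beside 11.5% of all genes, and all LU libraries were below ND for Cebpa, Ebf1 and Ebf2, beside 11.6%. Ebf1 in LU was lower than ND by -0.265 (SE 0.07; limma, Benjamini-Hochberg adjusted p = 0.0362), without passing the fold threshold, as 1 of the 7 lower by the adjusted p alone beside 4.08% of all genes. It did not pass in 8 of the 12 fits that left out 1 library, nor over protein-coding rows (-0.185; limma, Benjamini-Hochberg adjusted p = 0.189). The Ebf2 difference of LU from ND was -0.65 (SE 0.20; limma, Benjamini-Hochberg adjusted p = 0.0504), a value at the edge of the threshold.

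The cell type markers of the tissue moved with the same groups, which does not tell a change in cell numbers from a change in RNA per cell. The summed FPKM of 8 mature adipocyte markers ranged from 32608 to 34993 in ND, 16805 to 18910 in HFD, 25920 to 28668 in CLE and 24454 to 29684 in LU. The summed FPKM of 10 macrophage markers ranged from 364 to 554 in ND, 2842 to 3316 in HFD, 670 to 1069 in CLE and 1104 to 1287 in LU. Of 12813 genes tested, 1910 were called higher and 1378 lower in HFD against ND. In this comparison 7 of 8 adipocyte markers were called lower and Lep higher, with a median log2 difference of -0.84. Of 10 macrophage markers, 9 were called higher, with a median of 2.84. Beside these medians stand the differences of Cebpa (-0.48), Ebf1 (-0.54), Ebf3 (-0.72) and Ebf2 (-0.84). The part of this shift in the factors' differences was not tested.

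Of the 9 progenitor and fibroblast markers, 3 were called higher in HFD (Pdgfrb, Fap and Lum) and Ly6a lower, and the summed range was 783 to 911 FPKM in HFD against 801 to 988 in ND. The 7 mesothelial markers summed to 10.01 to 62.2 FPKM in ND and 2.32 to 7.36 in HFD, with 5 of the 6 tested called lower. Endothelial markers summed to 198 to 322 FPKM in ND and 158 to 266 in HFD. In LU against HFD 3 of 5 were called higher, beside 4.77% of all genes, with a median of 0.69. In CLE against HFD 2 of 5 were called higher, beside 6.34% of all genes, with a median of 0.61. Between CLE and LU 0 were called. Of 9 epididymis markers, which would show carried-over epithelium, 5 were under 0.1 FPKM in every library and the sum reached at most 2.19, in an LU library. The 6 T and NK cell markers summed to at most 7.07 FPKM, and the 4 skeletal muscle markers with rows summed to at most 15.8.

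**Figure D4:**
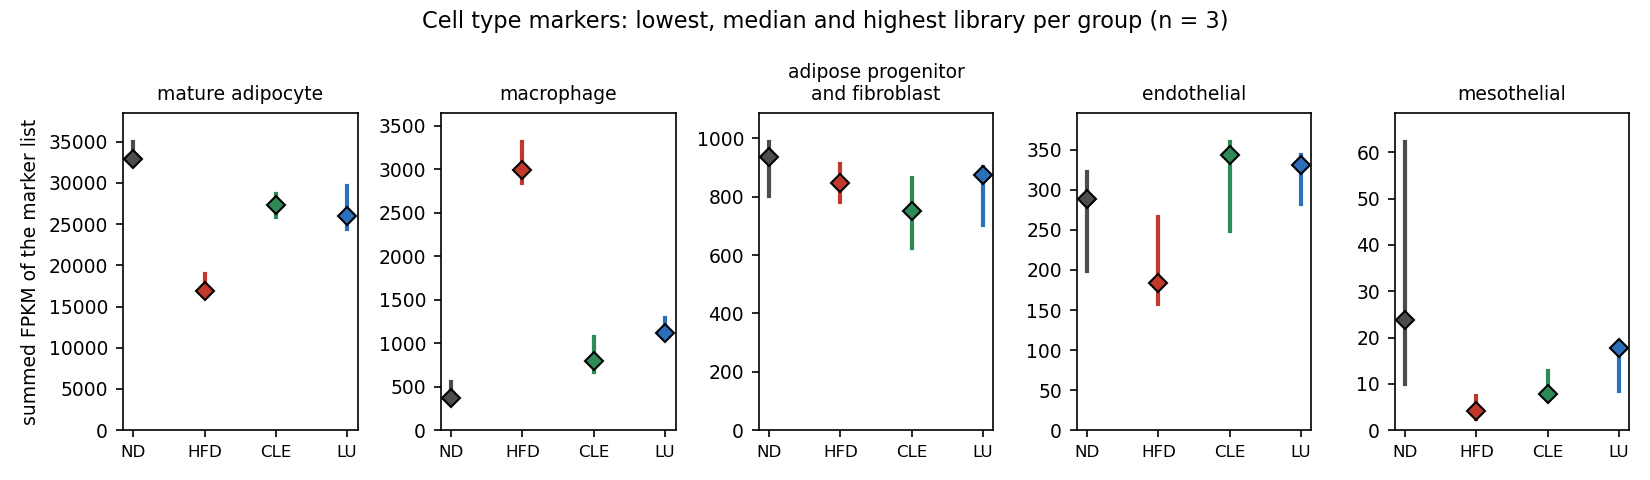
Summed FPKM of 5 marker lists on the y axis, each from 0, in the 4 groups on the x axis. Diamonds are the median library and lines run from the lowest to the highest of 3. HFD has the lowest adipocyte sum and the highest macrophage sum, with CLE and LU between HFD and ND for both.

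Other genes of the C/EBP network were taken from a list of 11 partners, of which 10 were tested. Of all genes tested, 25.7% were called in HFD against ND, 16.5% in CLE against HFD and 12.4% in LU against HFD. These shares stand beside the counts of this list and of those below. In HFD against ND, Atf3 and Ddit3 were called higher and Trib2 and Trib3 lower. Atf3, a stress factor that pairs with C/EBP proteins, went from 2.74 ± 0.451 FPKM in ND to 71.0 ± 8.08 in HFD (SD, n = 3), a log2 difference of 4.27 (limma, Benjamini-Hochberg adjusted p = 1.46e-05). Trib3, a pseudokinase, went from 8.46 ± 3.13 to 3.22 ± 0.580 FPKM, and Trib2, which promotes the breakdown of C/EBPα, from 10.2 ± 1.58 to 5.92 ± 0.682. Ddit3, also called CHOP, which blocks C/EBP binding as a partner, went from 11.7 ± 0.672 to 18.9 ± 1.01. In CLE against HFD the 4 genes were called in the other direction, and in LU against HFD the same held for Atf3, Trib2 and Trib3.

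Partners of the EBF factors and ZFP423 were taken from another list. Of 9 tested, 1 was called in HFD against ND, beside 25.7% of all genes. Nfia, which opens brown fat enhancers, fell from 19.2 ± 3.72 to 10.4 ± 1.74 FPKM, a log2 difference of -0.82 (limma, Benjamini-Hochberg adjusted p = 0.00173). With either supplement against HFD limma called 0 of the 9, beside 16.5% of all genes in CLE and 12.4% in LU. At an unadjusted p under 0.05 there were 1 higher and 1 lower in CLE and 0 in LU. The median difference was -0.003 for both supplements.

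Among 19 tested activators of adipogenesis, 4 were called lower in HFD (Klf4, Klf9, Zbtb16 and Bmp4) and Egr2 higher. This was near the share of all genes called in HFD against ND, 25.7%. Bmp4, a signal that commits cells to the fat lineage, went from 7.55 ± 3.26 to 1.72 ± 0.369 FPKM, and was 6.31 ± 1.70 in CLE and 5.00 ± 0.595 in LU. Egr2, an early factor upstream of Cebpb that macrophages also express, went from 0.558 ± 0.101 to 16.1 ± 3.82 FPKM. Klf9, which acts on Pparg2, went from 47.3 ± 12.5 to 24.2 ± 0.514. Pparg, the partner of C/EBPα, held 91.9 ± 18.9, 66.4 ± 3.05, 90.6 ± 2.44 and 89.2 ± 10.1 FPKM in ND, HFD, CLE and LU. It passed the adjusted p and not the fold in HFD against ND (-0.44), CLE against HFD (0.44) and LU against HFD (0.415), with limma, Benjamini-Hochberg adjusted p of 0.0162, 0.0244 and 0.0385.

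The list of inhibitors of adipogenesis did not move as 1 block. Of its 17 tested genes, 5 were called lower in HFD (Gata2, Klf2, Hes1, Nr2f2 and Tcf7l2) and 2 higher (Tgfb1 and Sfrp5), beside 25.7% of all genes called. Sfrp5 stands in this list although it is a secreted antagonist of Wnt signals, which themselves hold back adipogenesis. It went from 81.0 ± 49.2 to 252 ± 28.9 FPKM and remained at 264 ± 43.2 in CLE and 266 ± 61.4 in LU. Tgfb1 rose from 12.8 ± 0.680 to 34.4 ± 2.48 and Nr2f2, a nuclear receptor, fell from 11.3 ± 3.39 to 5.09 ± 0.577. In CLE and in LU against HFD, 4 were called higher and Tgfb1 lower.

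Genes that C/EBPα is known to act on in mature fat cells form the longest of these lists. All 8 mature adipocyte markers summed above are among them, so these are not separate findings. Of 22 tested, 13 were called lower and 3 higher in HFD against ND, beside 10.8% of all genes called lower. The median was -0.76, and the part of C/EBPα in these differences was not tested. Cfd, the adipokine adipsin, went from 5255 ± 1713 FPKM in ND to 447 ± 76.5 in HFD and 2069 ± 470 in CLE. Adrb3, the lipolytic adrenergic receptor, went from 641 ± 93.6 to 97.3 ± 25.8 and 341 ± 98.9, and Pck1, which supplies glycerol, from 2328 ± 213 to 451 ± 27.8 and 1783 ± 494. Adipoq, the hormone adiponectin, was 2136 ± 235 in ND, 1186 ± 68.4 in HFD, 1933 ± 270 in CLE and 1829 ± 179 in LU. In CLE against HFD 14 of the 22 were called higher and 2 lower (Lep and Gpd1), and in LU against HFD 9 were called higher and the same 2 lower.

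The acute phase and inflammatory genes that C/EBPβ and C/EBPδ act on went the other way, while Cebpb itself did not pass the test. Of 16 tested, limma called 12 higher and 0 lower in HFD against ND, with a median of 1.36, beside 1910 of all 12813 genes called higher. At an unadjusted p under 0.05 there were 13 higher and 0 lower. Saa3, an acute phase protein, went from 4.11 ± 3.23 to 102 ± 25.5 FPKM, Msr1, a scavenger receptor of macrophages, from 1.83 ± 0.424 to 20.1 ± 2.56, and Csf1r, a defining macrophage gene also in the marker list, from 26.4 ± 5.81 to 141 ± 7.37. In CLE against HFD 12 were called lower, and in LU against HFD 10. Lcn2, a lipocalin, held 3.49 ± 2.55, 9.98 ± 4.01, 2.06 ± 0.709 and 7.04 ± 7.21 FPKM in ND, HFD, CLE and LU, and of the 3 comparisons passed in CLE against HFD alone. The macrophage marker sums given above moved with these genes, and their part was not tested.

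Among the beige and brown genes that EBF2 and ZFP423 act on, Cpt1b was called higher and Cidea lower in HFD against ND. In this comparison 25.7% of all genes tested were called. Of the 14 genes listed, 9 were tested, and Ucp1, the uncoupling protein that defines brown fat, was not among them because of low FPKM. Cidea fell from 4.40 ± 1.39 FPKM in ND to 1.14 ± 0.466 in HFD, with 1.37 ± 0.325 in CLE, and Cpt1b rose from 0.871 ± 0.175 to 2.99 ± 0.703, with 0.941 ± 0.998 in CLE. No other gene of the 9 was called in HFD against ND, and the median of the list was 0.08.

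**Figure D5:**
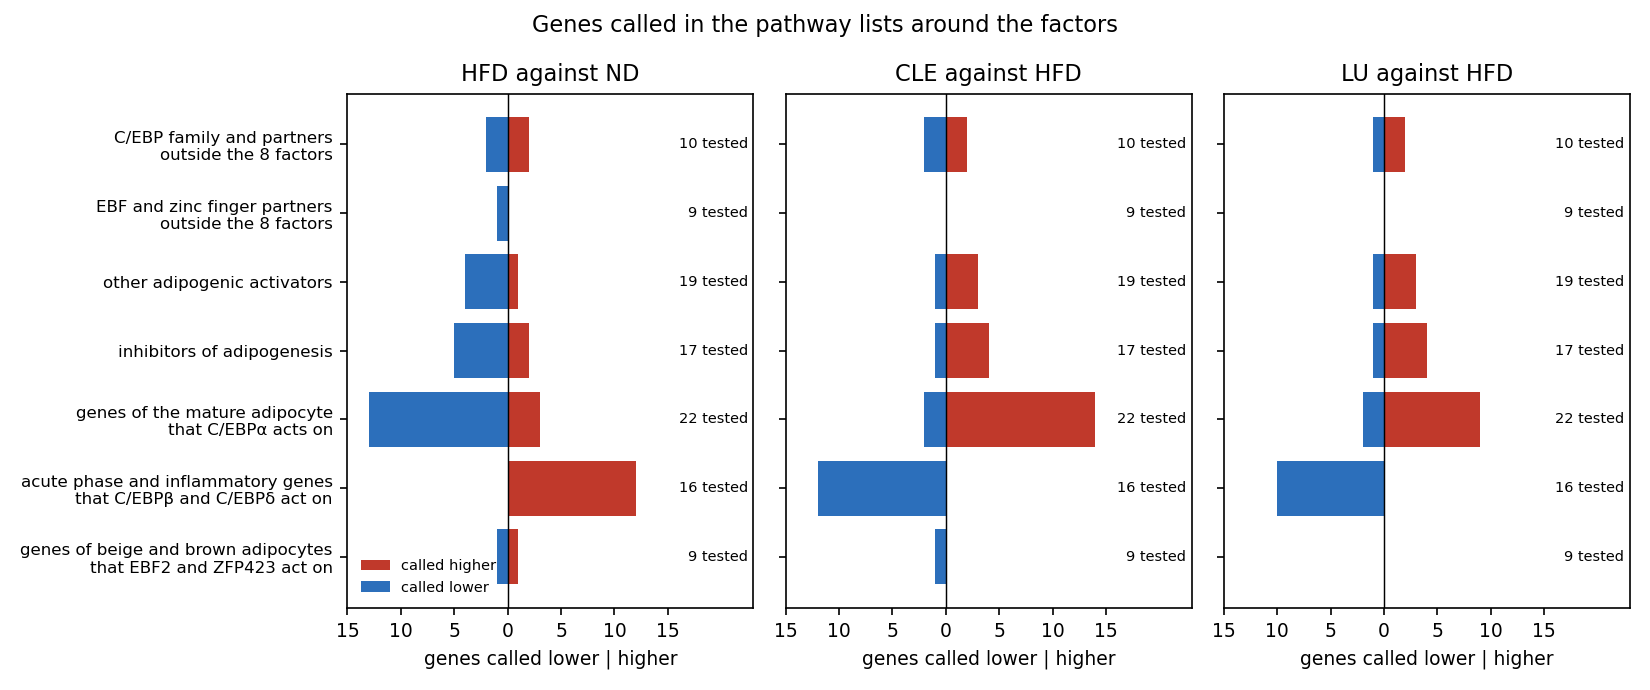
Number of genes called higher (right, red) and lower (left, blue) in 7 lists around the factors, on the x axis, in 3 comparisons, with the number tested at the right of each row. Of all genes tested, 25.7% were called in HFD against ND, 16.5% in CLE against HFD and 12.4% in LU against HFD. In HFD against ND, 13 of the 22 mature adipocyte genes are lower and 12 of the 16 acute phase and inflammatory genes are higher, and the calls in CLE and in LU against HFD, which share the HFD mice, lie mostly on the other side.

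The genes most like each factor over the 12 libraries were picked by Pearson's r of log2(FPKM + 1), which describes these libraries and shares their group structure. For Ebf3 they were Syt7 (r = 0.989), Ptk2 (0.984) and Hspa12b (0.983), and for Ebf1 they were Gm20257 (0.983), Kctd15 (0.974) and Eci3 (0.974). Ebf2 was closest to Dbt (0.963), Sp3 (0.958) and Aldh6a1 (0.953), and Cebpa to Ywhab (0.936), Ptcd3 (0.918) and Dolk (0.916). The closest genes of Cebpg were Sltm (0.898), Dimt1 (0.879) and Slc38a2 (0.858), those of Zfp423 were Pxdn (0.884), Abca3 (0.883) and Ddb1 (0.854), and those of Cebpb were Osgin1 (0.855), Setmar (0.846) and Shb (0.801). The 3 factors with groups that overlapped had the lowest of these values.

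Among the factors themselves, Ebf1 and Ebf2 had r = 0.803 over the 12 libraries, Cebpa and Ebf1 0.796 and Cebpa and Ebf2 0.795. Taken within groups, as deviations from the group means, these were 0.525, 0.620 and 0.442, whereas Ebf1 and Ebf3 went from 0.713 to -0.511. Cebpg and Zfp423 ran against each other at -0.763 and, within groups, at -0.648. These values are descriptions over 12 libraries that share the 4 groups.

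A letter R stands in 4 titles, those of mice 3 and 4 on ND, of mouse 4 on CLE and of mouse 2 on LU. Its meaning is not given in the sources used here, and no HFD title has it. The column headings of the same 4 libraries also share a further number, which no other heading used here has. The meaning of that number is not given either. With R as a covariate HFD differed from ND by -0.60 for Cebpa, -0.55 for Ebf1, -0.91 for Ebf2 and -0.69 for Ebf3. Without the R libraries, with ND mouse 2 alone in its group and assumed to vary like the others, these were -0.645, -0.57, -1.23 and -0.83. Cebpa passed the fold threshold in both fits (limma, Benjamini-Hochberg adjusted p = 0.00480 and 0.0178). CLE against HFD gave 0.58, 0.31, 0.51 and 0.71 without these libraries, and LU against HFD gave 0.20, 0.25, 0.17 and 0.54, where the Ebf3 call of LU fell under the fold threshold.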

How the data were processed

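RNA-seq of eWAT from 12 mice was used, 3 in each of ND, HFD, CLE and LU, grouped by the labels. Libraries were TruSeq, with paired ends. The authors deposited FPKM values for 152210 transcripts in 15 columns. Another 3 of those 15 were left out, as their names fit none of the samples. The submitters' processing notes name CASAVA 1.8.2, Bowtie2 2.2.3, TopHat2 2.0.12 and Cufflinks 2.2.1. The genome build is not given in the sources used here. Of the annotated transcripts found in GENCODE M21 (GRCm38), 87.6% had the same start and end, and gene positions are those of GENCODE. The columns of CLE carry another abbreviation and were mapped through the diet in the labels, and for mouse 4 on ND the heading reads MD4, so its assignment is an inference. Columns with the authors' own calls of genes at set cut-offs were not used.

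Rows with an Ensembl transcript, exact or with a new junction, were summed to 23132 genes. Other assembled rows held 65.6% to 92.8% of each column's total and were left out, and totals over genes ranged from 438190 to 458412 FPKM. FPKM carry no depth: between 29.2% and 42.1% of low values lay within 0.1 of a whole multiple of the best step, where 20% is expected with none, so reads were not recovered and the depth is unknown.

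Genes with at least 1 FPKM in at least 3 libraries (12813) were fitted with limma 3.58.1 (R 4.3.3) after log2(FPKM + 1), using 1 model for the 12 libraries with group means and no covariate, since the file holds no counts for the test the authors state. Calls required both a fold change above 1.5 and p adjusted by Benjamini-Hochberg below 0.05. The method was tested on simulated data. Single genes were also given an exact permutation test. The factors, lists, markers and tests were chosen with earlier results of these data known. Named genes were the 8 factors, at most 3 called genes per list with the largest difference in HFD against ND, the genes that define a pathway (Pparg, Adipoq, Lcn2, Ucp1 and Ddit3) and the 3 most similar genes per factor. Other called genes of a list and markers were named without values. Replicates are separate mice. Tables were made with Python 3.11.15, pandas 2.3.3, numpy 2.4.6 and scipy 1.17.1, and plots with matplotlib 3.10.9. Alternatives were another pseudocount, filters, scalings, moderation, weights, R as a covariate or left out, other sums of transcripts, a replicate block and leaving out each library. Cebpd was not analysed here.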

Additional observations from a re-analysis of the deposited data

How the results depend on the processing

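Of 1134 values of single factors under an alternative, 1073 kept their direction and their side of the call, 15 were no longer called and 12 were newly called. Much of this was fixed in advance. The filters, the moderation trend and leaving out a library outside the comparison cannot alter a log2 difference. Most values were uncalled in the main fit and remained so, so the count does not measure how steady the calls were. HFD against ND gave 3 called factors with quantile normalization (Ebf1 beside Ebf2 and Ebf3), with R as a covariate and without the letter R libraries (Cebpa beside them) and with the highest transcript (Zfp423 beside them), 4 by the adjusted p alone, and 2 under the other alternatives run. CLE against HFD gave 1 (Ebf3) with no filter on low values, without the letter R libraries, with the highest transcript and without assembled transcripts (class code j), 4 by the adjusted p alone, and 1 to 2 when 1 library was left out. LU against HFD gave 0 with median ratio scaling, without the letter R libraries, with the highest transcript and without class code j, 2 by the adjusted p alone, and 0 to 1 when 1 library was left out. LU against ND gave 1 (Ebf2) with a mean FPKM of at least 5, median ratio scaling, quantile normalization, a moderation trend and protein-coding transcripts, 1 (Ebf1) by the adjusted p alone, and 0 to 1 when 1 library was left out. For Zfp423 the highest transcript is its short non-coding row. The cause of these changes in the calls was not tested.

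Values whose sign turned were uncalled in the main fit. Among them only the Ebf1 sum in CLE against HFD had passed the adjusted p. In HFD against ND, Cebpb was 0.009 with array weights and -0.23 to 0.16 when 1 library was left out, and Zfp423 was -0.10 over protein-coding transcripts. In CLE against HFD, Cebpb was 0.009 with R as a covariate, Ebf1 was -0.043 and Zfp423 was -0.32 with the highest transcript, and Zfp423 was -0.095 without class code j and -0.001 to 0.36 when 1 library was left out. In LU against HFD, Cebpg was -0.009 with median ratio scaling and -0.057 with the highest transcript, and Zfp423 was 0.008 with array weights, 0.25 over protein-coding transcripts and -0.165 to 0.13 when 1 library was left out. In CLE against LU, Ebf1 was -0.46 with the highest transcript and -0.023 to 0.038 when 1 library was left out, and Cebpb was -0.11 to 0.19. In CLE against ND, Cebpa was 0.002 with equal totals and -0.16 to 0.10 when 1 library was left out, and Ebf3 was -0.011 with quantile normalization, -0.018 with array weights, -0.13 without the letter R libraries, -0.026 in the same 7 libraries with no block and -0.12 to 0.11 when 1 library was left out. In LU against ND, Cebpg was -0.19 to 0.015 when 1 library was left out. With the highest transcript Zfp423 was called higher in HFD against ND (1.26). That row is the short non-coding transcript ENSMUST00000173092, and the protein-coding rows gave -0.10.

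Mouse numbers are shared by few libraries, and the deviations of same-numbered libraries correlated at -0.102 to 0.186, so the numbers were not taken as pairs. With the replicate block, Ebf3 was -0.185 in CLE against LU, -0.15 in CLE against ND and 0.037 in LU against ND, and 0 factors were called in each. HFD shares no number with the other groups. Quantile normalization moved the calls over all genes in HFD against ND from 1910 higher and 1378 lower to 1679 and 1710. Without counts, depth and counting error are unknown, and 3 mice per group limit the precision.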

Other observations

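The lists around the factors were also set against ND, where 2.98% of all genes were called in CLE and 6.57% in LU. Of the 22 mature adipocyte genes that C/EBPα acts on, limma called Lep higher and Cfd lower in CLE, with a median difference of -0.10, while at an unadjusted p under 0.05 there were 1 higher and 8 lower. In LU it called Lep higher and 4 genes lower (Retn, Adrb3, Pck1 and Cfd), with a median of -0.20 and 10 lower at an unadjusted p under 0.05.

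Of the 16 acute phase and inflammatory genes, 3 were called higher than ND in CLE (Saa3, Csf1r and Msr1) and 7 in LU, where Hp, Ccl2, C3 and Arg1 joined them. Over all 12813 genes tested, 270 were called higher than ND in CLE and 638 in LU. Of the 10 macrophage markers, 7 were called higher than ND in CLE and 8 in LU, and the part of these cells in the inflammatory genes was not tested. Sfrp5, the secreted Wnt antagonist, was called higher than ND in both supplements, and Cidea, a lipid droplet protein of brown fat, was called lower in both. The comparisons of CLE and of LU share the ND mice.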
